A study of Mus musculus with 12 samples.

Results

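Metallothioneins are small cysteine-rich proteins that bind zinc and copper in the cytoplasm, and Mt1 and Mt2 are the forms found in most mouse tissues. When free zinc increases, the zinc-finger transcription factor MTF1, encoded by Mtf1, binds metal response elements in the promoters of Mt1, Mt2 and Slc30a1. Slc30a1 encodes ZnT1, the exporter that moves zinc out of the cell across the plasma membrane, so these genes together buffer and export zinc. Their RNA levels are described here in a mouse B lymphoma line. The 4 genes, Mt1, Mt2, Mtf1 and Slc30a1, were taken by name from 56941 genes in the count table. They were chosen by their CPM levels and log2 differences across these groups in earlier results of the same data. Those levels and differences are therefore given as a description with no test. The lists of other genes below were also chosen with earlier results known. Their p-values and counts of calls are therefore no independent test of those lists. Mt2, Mtf1 and Slc30a1 passed a filter on low counts that kept 16794 genes, and Mt1 did not.

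The study examined NOP16, a nucleolar protein, in class switch recombination, using CH12F3-2A cells that switch to IgA in culture. RNA was sequenced from 4 groups of 3 libraries, which the labels call biological replicates: sgNop16 with CIT, sgCtr with CIT, sgNop16 without CIT and sgCtr without CIT. All cells received a pX459 plasmid carrying Cas9, a guide RNA (against Nop16, or the control guide sgCtr) and puromycin resistance, and were under puromycin for 72 h. CIT stands for anti-CD40L at 1 µg/ml, mouse IL-4 at 20 ng/ml and human TGF-β at 1 ng/ml, given for 24 h. The labels name 1 guide against Nop16 and describe a transfected population, and they give no share of edited cells. In such bulk RNA, fewer cells expressing a gene and less RNA per cell cannot be told apart.

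The libraries held between 38866418 and 48615177 counts. Nop16 RNA was lower with its guide, by a log2 difference of -0.31 ± 0.04 without CIT and -0.23 ± 0.04 with CIT (± SE; adjusted p = 0.000563 and 0.00455 in edgeR's quasi-likelihood test). The cytokine-induced gene Cish was higher with CIT by 5.63 ± 0.16 on the log2 scale with either guide. B cell markers summed to between 3400 and 3810 CPM (counts scaled to library size) in all libraries, and T cell markers stayed at or under 2.6 CPM. Of 5 macrophage markers, Lyz2 was at 0 in all 12 libraries. The sum of the 5 was 15.6 to 18.2 CPM with sgNop16 and CIT, 11.9 to 15.1 with sgCtr and CIT, 9.23 to 10.7 with sgNop16 alone and 7.4 to 8.39 with sgCtr alone. Fibroblast markers summed to 5.2 CPM at most, with Col1a2 and Dcn at 0. The part of these other markers in the results was not tested.

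The start regions of Mt1, Mt2 and Slc30a1 are shown because they carry the element through which MTF1 is known to act. The sequences are RefSeq's for GRCm38.p6, on the forward strand of each chromosome, which is the strand of the gene. Each is the 250 bases before the annotated start. Capitals mark matches to the core of the metal response element, TGCACNC or TGCGCNC, searched on both strands, so that a match on the reverse strand reads as the reverse complement. Mt1 is at chr8:94178839-94179088, Mt2 at chr8:94172368-94172617 and Slc30a1 at chr1:191906531-191906780.
Mt1: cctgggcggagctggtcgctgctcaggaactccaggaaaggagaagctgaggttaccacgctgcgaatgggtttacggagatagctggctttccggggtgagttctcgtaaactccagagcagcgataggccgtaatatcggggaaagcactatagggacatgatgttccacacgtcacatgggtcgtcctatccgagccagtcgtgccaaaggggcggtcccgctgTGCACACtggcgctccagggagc
Mt2: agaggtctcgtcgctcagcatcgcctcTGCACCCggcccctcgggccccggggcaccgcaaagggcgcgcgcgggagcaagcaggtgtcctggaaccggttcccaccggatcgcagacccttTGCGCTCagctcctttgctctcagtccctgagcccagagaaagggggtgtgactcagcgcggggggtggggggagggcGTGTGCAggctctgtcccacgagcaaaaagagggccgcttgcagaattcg
Slc30a1: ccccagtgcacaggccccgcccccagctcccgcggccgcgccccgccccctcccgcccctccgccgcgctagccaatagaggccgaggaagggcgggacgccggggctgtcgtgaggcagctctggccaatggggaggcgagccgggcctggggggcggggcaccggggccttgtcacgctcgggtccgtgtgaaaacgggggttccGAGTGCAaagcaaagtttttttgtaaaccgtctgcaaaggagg

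The search also covered the 50 bases after the start, where further matches lay. The short stretches that hold them are at chr8:94179089-94179117 for Mt1, chr8:94172618-94172633 for Mt2 and chr1:191906807-191906822 for Slc30a1.
Mt1: tcTGCACTCcgcccgaaaagTGCGCTCgg
Mt2: ggtcGTGCGCAggccc
Slc30a1: ggccGAGCGCAgtcgc

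Over the 300 bases, Mt2 held 4 matches, at positions -223, -128, -50 and 5 counted to the first base of each match from the start. Mt1 held 3, at -23, 3 and 21, and Slc30a1 held 2, at -43 and 31. No match overlapped another. The Mtf1 window, at 124802299 to 124802598 on chromosome 4, held 0. Of 32851 RefSeq windows of the same length, 25.7% held at least 1 match, 7.11% at least 2, 1.97% at least 3 and 0.517% at least 4. Mt3 and Mt4, which lie beside Mt1 and Mt2 on chromosome 8, held 1 match each. These matches describe the letters in the windows, and no binding was measured. Their numbers and positions hold for the 1 annotated start used per gene, and elements outside the 300 bases were not searched.

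**Figure D1:**
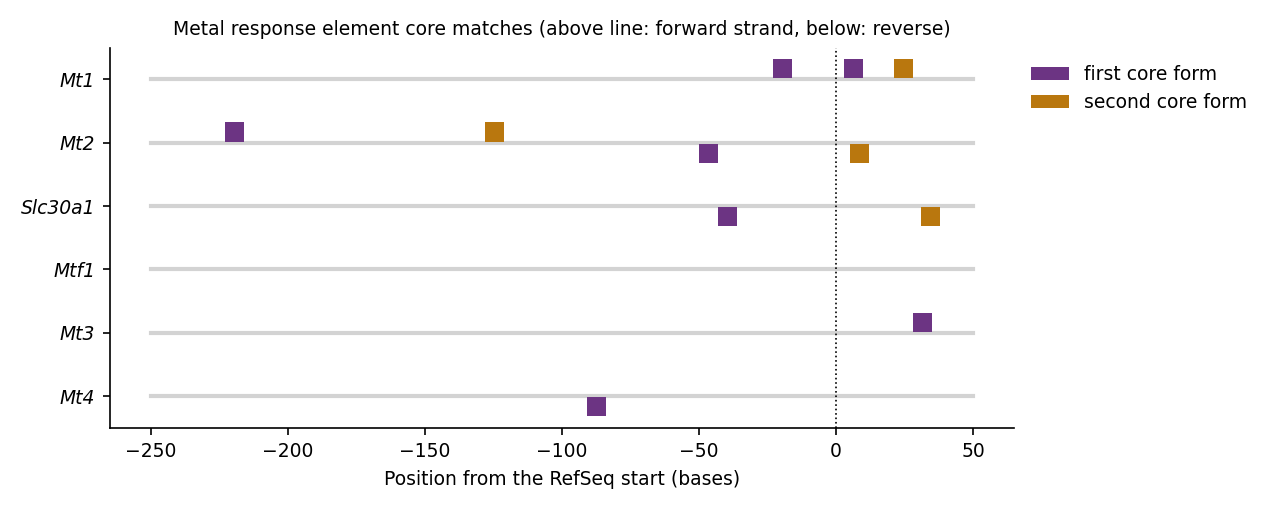
Positions of metal response element core matches in the 300 bases around the RefSeq start of 6 genes, with position in bases on the x axis and 1 line per gene. Blocks above a line are on the forward strand and blocks below it on the reverse strand, and color gives the core form (the first is TGCACNC, the second TGCGCNC); Mt2 has 4 blocks, Mt1 3, Slc30a1 2 and Mtf1 0.

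Mt1 (ENSMUSG00000031765) had 0 counts in 12 of 12 libraries. Among values of 1 to 12 in this table, 14.78% were 4, against 12.59% at 3 and 6.73% at 5. The commonest was 1, at 16.38%, so a fixed number of counts per fragment is an assumption. Here 1 sequenced fragment was taken as 4 counts, and the limit that a count of 0 allows as 3 fragments, or 12 counts. That limit was 0.247 to 0.309 CPM per library, and 0.0228 CPM over the 527011620 counts of all libraries together. It covers counting error only. Whether the annotation or the counting step of the deposited table gave these zeros cannot be seen from the table, so the limit holds for Mt1 counts as deposited. Of 21749 protein-coding genes, 32.5% were also at 0 in every library, and among the 2648 with no more exon bases than Mt1 the share was 64.4%, while 0 of 77 cytosolic ribosomal protein genes were. None of the 1292 stretches of 50 bases in Mt1 transcripts was found in transcripts of another gene, and the longest run that Mt1 shared with Mt2 was 20 bases. No difference of Mt1 between guides or with CIT could be measured.

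Mt2 (ENSMUSG00000031762) had the highest level of the metallothioneins in every library, and that level was low. With CIT it had 4.21, 5.6 and 5.69 CPM in sgNop16 libraries, against 2.2, 3.25 and 2.46 CPM in sgCtr libraries. All 3 sgNop16 libraries lay above all 3 sgCtr libraries. Without CIT it had 8.14, 8.46 and 6.45 CPM in sgNop16 libraries, against 4.35, 6.48 and 4.98 CPM in sgCtr libraries. There the groups overlapped, since the lowest sgNop16 library lay just under the highest sgCtr library.

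The group means of Mt2 were ordered as sgNop16 without CIT at 7.68 ± 1.08 CPM, sgCtr without CIT at 5.27 ± 1.09 CPM, sgNop16 with CIT at 5.17 ± 0.826 CPM and sgCtr with CIT at 2.64 ± 0.548 CPM (SD, n = 3 each). The libraries of sgNop16 without CIT overlapped those of sgCtr without CIT, which in turn overlapped those of sgNop16 with CIT. The libraries of sgCtr with CIT lay below all 9 others. The Nop16 guide went with a log2 difference of 0.97 ± 0.20 with CIT, a 1.96-fold higher level, and of 0.54 ± 0.19 without CIT, a 1.46-fold higher level. CIT went with a log2 difference of -0.57 ± 0.19 in sgNop16 cells and -1.0 ± 0.20 in sgCtr cells, and the libraries of the stimulated group lay below those of the unstimulated group with either guide. The difference between the CIT responses was 0.43 ± 0.28 and lay between 0.24 without sgCtr_no library 2 and 0.61 without sgCtr_CIT library 2.

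Across all tested genes, the 3 sgNop16 libraries lay above the 3 sgCtr libraries for 13.2% with CIT and for 9.44% without CIT. The stimulated libraries lay below the unstimulated ones for 22.7% with sgNop16 and 25% with sgCtr. A log2 guide difference higher than that of Mt2 was found in 2.79% of tested genes with CIT and 8.16% without CIT. A CIT response lower than that of Mt2 was found in 9.71% of tested genes with sgNop16 and 4.02% with sgCtr. These shares place Mt2 among all genes and, because Mt2 was chosen with earlier results known, are no test of it. The share of genes for which sgCtr with CIT lay below all other groups was not counted.

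**Figure D2:**
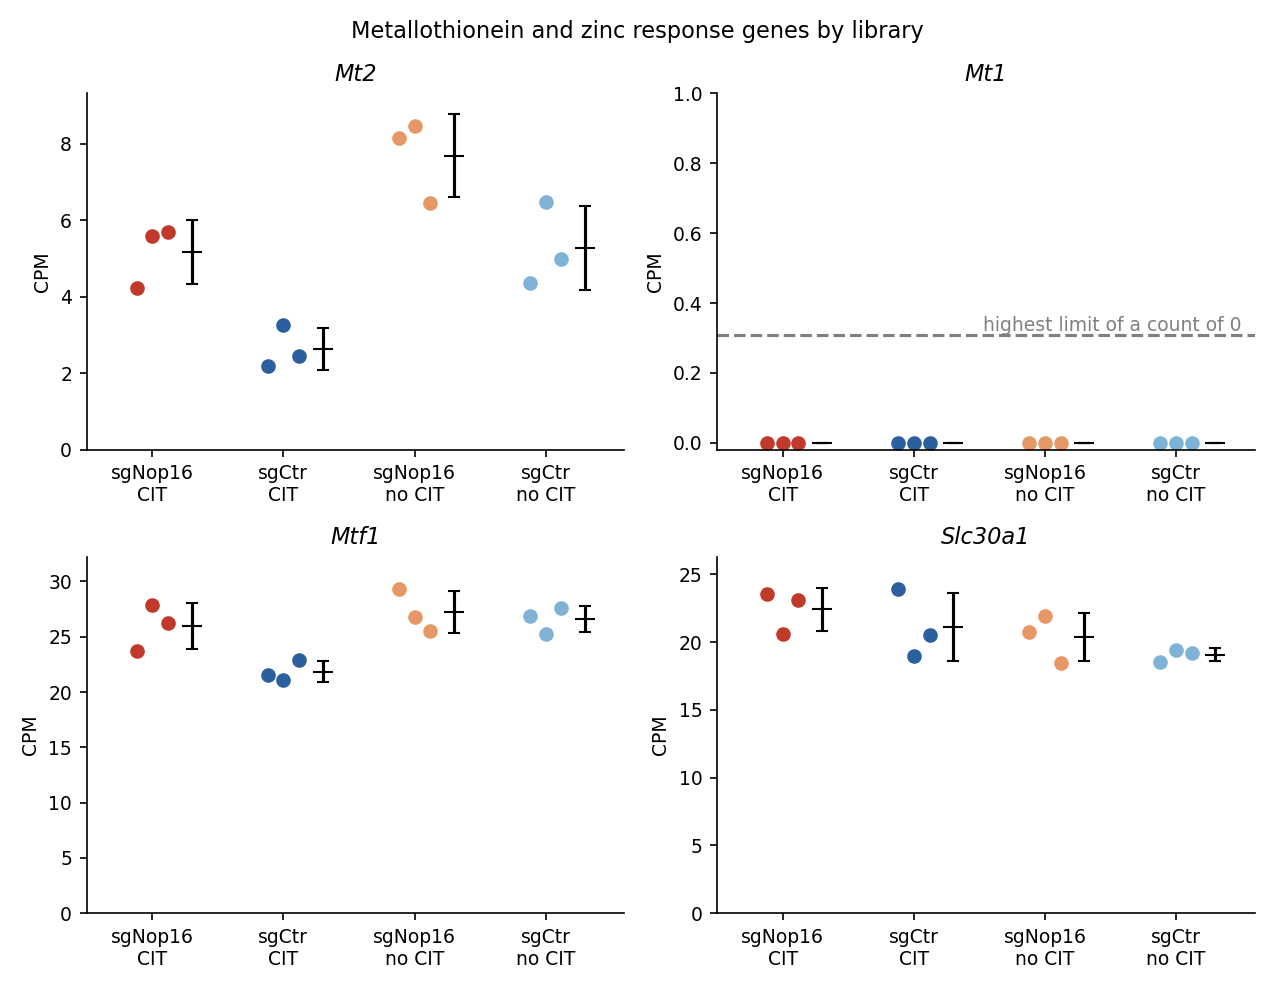
CPM of Mt2, Mt1, Mtf1 and Slc30a1 in each of 12 libraries (points), by group on the x axis, with the mean and SD of 3 libraries in black and the y axes starting at 0 (just under it for Mt1). The 3 libraries of sgCtr with CIT are the lowest for Mt2 and for Mtf1, Mt1 is at 0 throughout (dashed line: 0.309 CPM, the highest limit of a count of 0 in 1 library), and the groups of Slc30a1 lie close together.

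The Mt2 values rested on 96 to 379 counts per library, or 24.0 to 94.8 fragments at the assumed 4 counts each. On that assumption, counting alone gave an error of 10.3% to 20.4% per library. The spread between replicates, as a coefficient of variation, was 16% for sgNop16 with CIT, 20.8% for sgCtr with CIT, 14.0% for sgNop16 without CIT and 20.7% for sgCtr without CIT. An antisense gene model, Gm45774, covers 73.469% of the Mt2 exon bases on the other strand. Gm45774 had 0.051, 0 and 0 CPM in sgNop16 with CIT, and 0 in all 3 libraries of sgCtr with CIT. Without CIT it had 0.794, 0.239 and 0 CPM in sgNop16, and 0, 0.18 and 0 CPM in sgCtr libraries. The library kit keeps strand, but whether counting used it is not stated, so reads of the pair may have been shared.

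Mtf1 (ENSMUSG00000028890), the zinc sensor, had lower values in 1 group. With CIT it had 23.7, 27.9 and 26.3 CPM in sgNop16 libraries, against 21.6, 21.1 and 22.9 CPM in sgCtr libraries. Without CIT it had 29.3, 26.8 and 25.5 CPM in sgNop16 libraries, against 26.9, 25.3 and 27.6 CPM in sgCtr libraries. All 3 libraries of sgCtr with CIT lay below the 9 others, and the remaining groups overlapped.

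The log2 guide difference of Mtf1 was 0.25 ± 0.08 with CIT, an 18.8% higher level, and 0.03 ± 0.08 without CIT. Its CIT response was -0.07 ± 0.08 with sgNop16 and -0.28 ± 0.08 with sgCtr, and the difference between those responses was 0.22 ± 0.11. Of all tested genes, 14.7% had a higher guide difference with CIT than Mtf1, and 22.2% a lower CIT response with sgCtr. When sgNop16_no library 1 was left out, the guide difference of Mtf1 without CIT was -0.02. The antisense gene 1110065P20Rik, which shares 721 exon bases (8.095%) with Mtf1 and had 6.65 to 11.9 CPM, is counted beside it. Its guide difference with CIT was 0.34 ± 0.14 (adjusted p = 0.215), with all 3 sgNop16 libraries above the sgCtr libraries.

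Slc30a1 (ENSMUSG00000037434), the zinc exporter, differed little between groups. With CIT it had 23.5, 20.6 and 23.1 CPM in sgNop16 libraries, against 23.9, 18.9 and 20.5 CPM in sgCtr libraries. Without CIT it had 20.8, 21.95 and 18.5 CPM in sgNop16 libraries, against 18.6, 19.4 and 19.2 CPM in sgCtr libraries. The libraries overlapped in each of the 4 comparisons between groups.

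The log2 guide difference of Slc30a1 was 0.09 ± 0.10 with CIT and 0.10 ± 0.10 without CIT. Its CIT response was 0.14 ± 0.10 with sgNop16 and 0.15 ± 0.10 with sgCtr, and the difference between those was -0.01 ± 0.14. With 1 library left out, its CIT response lay between 0.06 and 0.19 with sgNop16 and between 0.05 and 0.22 with sgCtr. Its antisense neighbor 1700034H15Rik, which shares 468 exon bases (8.924%), had at most 1.2 CPM. Between replicates, the SD of log2 CPM was 0.26 for Mt2, 0.12 for Slc30a1 and 0.09 for Mtf1.

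**Figure D3:**
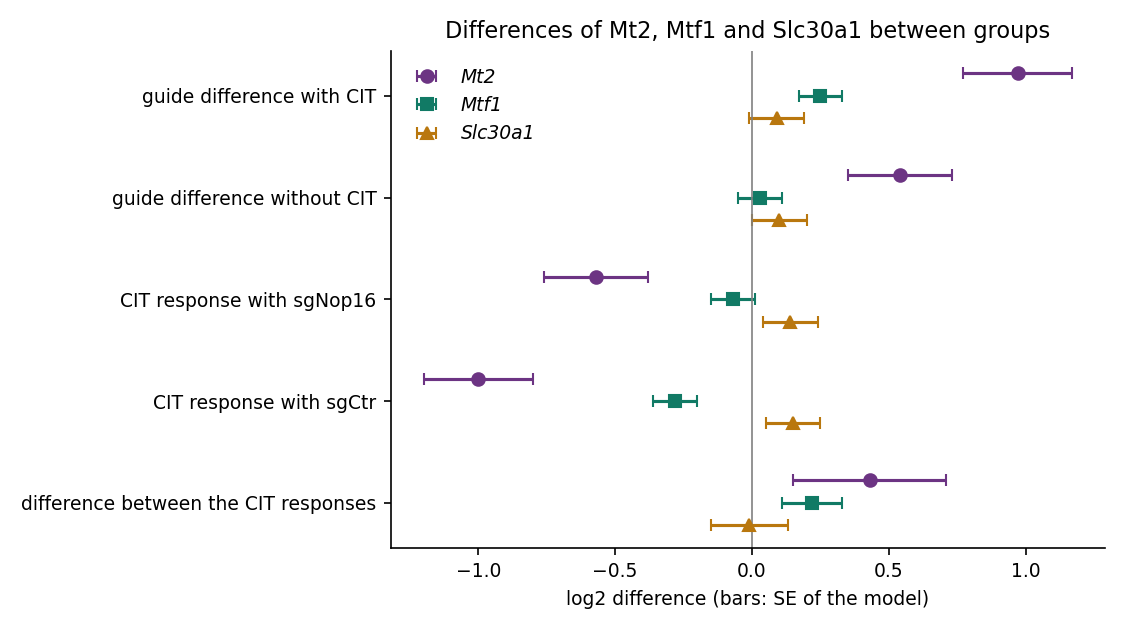
Log2 differences of Mt2, Mtf1 and Slc30a1 on the x axis, with bars for the SE of the model, for the 5 comparisons down the y axis; guide differences are sgNop16 minus sgCtr and CIT responses are CIT minus no CIT. Mt2 runs from -1.0 for CIT with sgCtr to 0.97 for the guide with CIT, and all values of Slc30a1 lie between -0.01 and 0.15.

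Levels of different genes were compared per kb of annotated exon. Mt2 had 8.79 ± 1.40 CPM per kb in sgNop16 with CIT, 4.48 ± 0.932 in sgCtr with CIT, 13.1 ± 1.83 in sgNop16 without CIT and 8.96 ± 1.86 in sgCtr without CIT. Slc30a1 had 4.27 ± 0.303, 4.03 ± 0.482, 3.89 ± 0.335 and 3.64 ± 0.088 CPM per kb in the same groups, and Mtf1 had 2.91 ± 0.234, 2.45 ± 0.105, 3.05 ± 0.214 and 2.99 ± 0.133 (SD, n = 3). Mt2 thus had the highest level per kb of the 4 in 3 groups. In sgCtr with CIT its libraries, at 3.73 to 5.53 CPM per kb, overlapped those of Slc30a1, at 3.61 to 4.56. Mt1 was at 0.

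Of the other metallothioneins, which in mice are known from brain (Mt3) and stratified epithelium (Mt4), Mt4 was at 0 in all 12 libraries. Mt3 had 0.945, 0.535 and 1.19 CPM in sgNop16 with CIT, 1.19, 0.654 and 0.725 in sgCtr with CIT, 0.902, 0.311 and 0.305 in sgNop16 without CIT and 1.05, 0.880 and 0.923 in sgCtr without CIT. The Mt3 groups overlapped in all 4 comparisons, and no difference of Mt3 was called with all libraries (adjusted p between 0.227 and 0.979). Without sgNop16_no library 1, its CIT response with sgNop16 was called at 1.5 ± 0.49 (adjusted p = 0.028), against 0.80 ± 0.48 with all libraries. The sgNop16_no libraries kept in that fit, at 0.311 and 0.305 CPM, lay near the limit of a count of 0. Its guide difference without CIT was -0.90 ± 0.48, and as low as -1.61 with 1 library left out. A gene is called here where edgeR's adjusted p over all 16794 genes was under 0.05. By level, the cluster on chromosome 8 therefore held 1 gene with several CPM, Mt2, 1 at 0.305 to 1.19 CPM, Mt3, and 2 at 0.

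**Figure D4:**
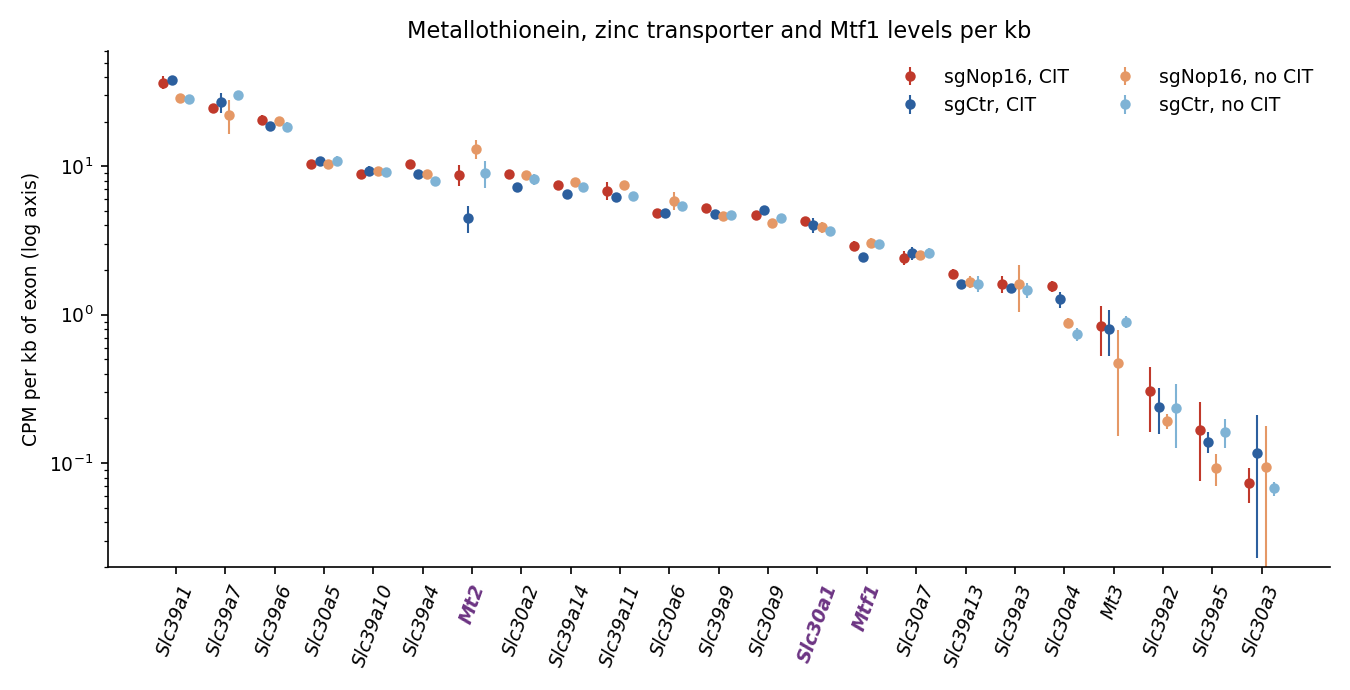
Mean CPM per kb of exon on a log axis (bars: SD, n = 3) for metallothionein and zinc transporter genes above 0.05 CPM per kb and for Mtf1, ordered by mean level, with 1 color per group. Mt2, Slc30a1 and Mtf1 are in bold; Mt2 shows the lowest point in sgCtr with CIT, at 4.48, and Mt1, at 0, cannot be drawn on this axis.

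The other zinc transporters comprise ZnT exporters (Slc30), which move zinc out of the cytoplasm, and ZIP importers (Slc39), which move it in. Of 23 such genes, 3 were at 0 in every library and 19 passed the filter on low counts. The Nop16 guide went with 2 higher and 0 lower of the 19 with CIT, where 6.16% of all tested genes were called. Without CIT it went with 0 higher and 0 lower by edgeR, where 3.32% of all tested genes were called. DESeq2 called 0 there, against 1198 of all tested genes, and 4 had an unadjusted p under 0.05. The median log2 guide difference of the 19 was 0.12 with CIT, against 0.01 for all tested genes, and 0.04 without CIT, against 0.0 for all tested genes.

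The transporters called with CIT were Slc30a2, a vesicular zinc exporter, and Slc39a14, an importer of zinc, iron and manganese. Slc30a2 had 33.4, 30.9 and 30.2 CPM in sgNop16 with CIT, against 26.4, 26.4 and 24.3 CPM in sgCtr with CIT, and rose by 0.29 ± 0.08 on the log2 scale (adjusted p = 0.0311). Slc39a14 had 79.6, 80.5 and 77.4 CPM in sgNop16 with CIT, against 68.0, 73.3 and 64.4 CPM in sgCtr with CIT, and rose by 0.21 ± 0.05 (adjusted p = 0.0172). In both, the 3 sgNop16 libraries lay above the 3 sgCtr libraries. Leaving out any 1 of the 6 stimulated libraries ended the call of Slc30a2 (adjusted p up to 0.128), and leaving out sgCtr_CIT library 1 or 3 or sgNop16_CIT library 1 or 2 ended that of Slc39a14 (up to 0.0866). The call of Slc30a2 also ended without a filter on low counts (adjusted p = 0.0539).

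CIT changed 5 of the 19 upward and 1 downward with sgNop16, where 37.0% of all tested genes were called, and 3 upward and 1 downward with sgCtr, where 41.4% were. Slc30a4, which loads zinc into vesicles, rose by 0.83 ± 0.14 with sgNop16 and 0.77 ± 0.14 with sgCtr (adjusted p = 0.000192 and 0.000317). It had 8.56 ± 0.729 and 4.83 ± 0.393 CPM with and without CIT in sgNop16 cells, and 6.97 ± 0.834 and 4.07 ± 0.414 CPM in sgCtr cells (SD, n = 3). Slc39a1, a plasma membrane zinc importer, rose by 0.33 ± 0.06 with sgNop16 and 0.42 ± 0.06 with sgCtr (adjusted p = 0.000441 and 4.02e-05), to 86.6 and 89.5 CPM with CIT, against 68.6 and 66.9 CPM without CIT. Slc30a9 rose by 0.17 ± 0.05 with sgNop16 and 0.19 ± 0.05 with sgCtr (adjusted p = 0.0155 and 0.00724). Slc39a14 fell by 0.16 ± 0.05 with sgCtr (adjusted p = 0.0113); sgCtr_CIT library 3 decided this call.

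With sgNop16, Slc39a4 and Slc39a9 were also called higher, at 0.21 ± 0.07 and 0.18 ± 0.06, and Slc30a6 lower, at -0.28 ± 0.10 (adjusted p = 0.0329, 0.0283 and 0.0478). Without sgNop16_no library 2, these 3 calls and that of Slc30a9 with sgNop16 ended (adjusted p up to 0.189), and the count of called transporters was then 2, against 6 with all libraries. Each of the 4 was also lost without other single libraries, and Slc30a6 under 4 other settings (up to 0.0772). The count was 3 without sgNop16_no library 1 and 3 without sgNop16_CIT library 3. No transporter was called by edgeR for a difference between the CIT responses, where 2.13% of all tested genes were. DESeq2 called 0 for it, against 1046 of all tested genes, and 0 had an unadjusted p under 0.05. Slc39a7 shares 80.65% of its exon bases with the read-through gene Gm20427, and its guide difference without CIT, -0.44, was not called, except without sgNop16_no library 3 (adjusted p = 0.043). It stood beside sums of the pair at 105.4 to 116.2 CPM in sgNop16 and 112.9 to 114.7 CPM in sgCtr libraries, which overlapped.

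**Figure D5:**
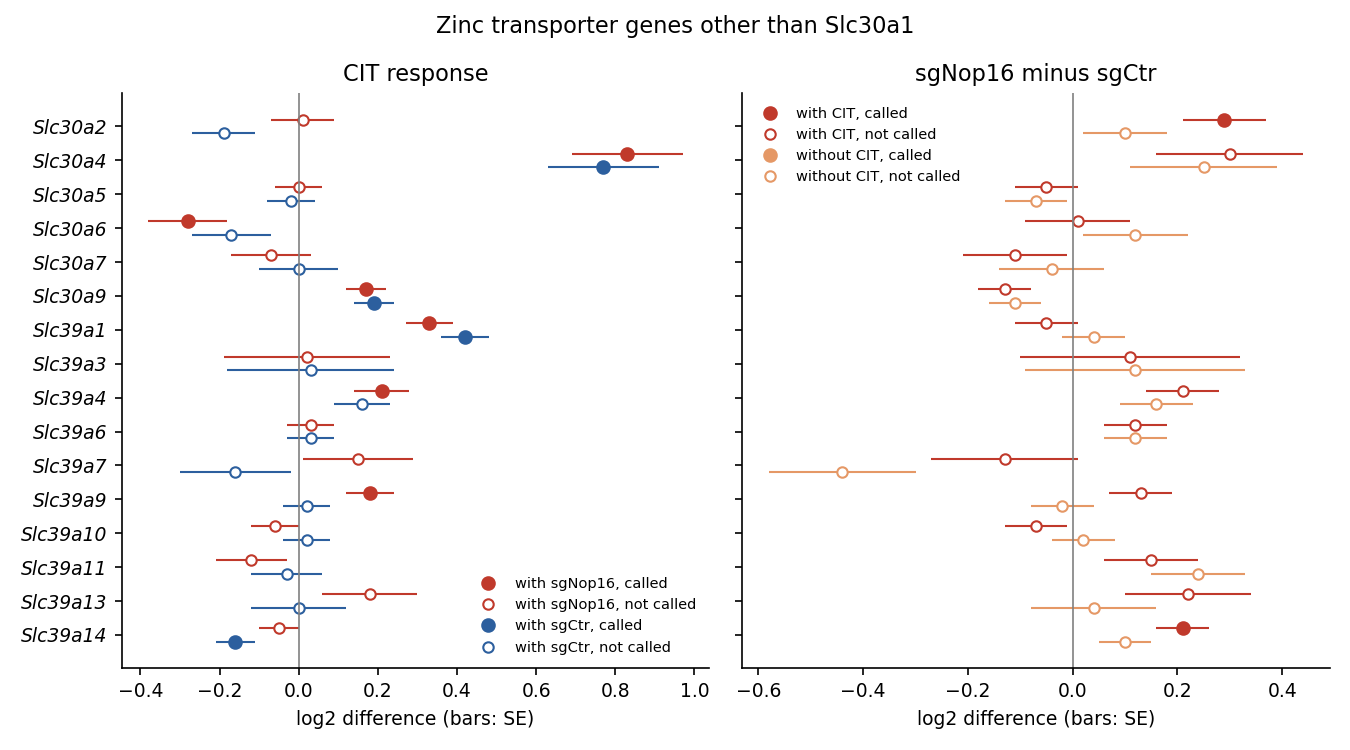
Log2 differences (x axis; bars: SE) of the 16 other zinc transporter genes with a median of at least 1 CPM, by CIT response (left) and by guide (right); filled points were called. Slc30a4 and Slc39a1 have the highest CIT responses with both guides, and the filled points of the right panel are Slc30a2 and Slc39a14 with CIT.

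A list of 8 other genes reported as MTF1 targets had 7 tested. For the Nop16 guide with CIT, edgeR called 0 of the 7 and 6.16% of all tested genes. DESeq2 called 1, against 1951 of all tested genes, and 1 had an unadjusted p under 0.05. Without CIT, where edgeR called 3.32% of all tested genes, 1 of the 7 was lower. This was Gclc, which encodes the catalytic subunit of glutamate-cysteine ligase in glutathione synthesis (-0.20 ± 0.04, adjusted p = 0.00903). That call ended without sgCtr_no library 1 (0.057) or sgNop16_no library 2 (0.0508). With CIT, 3 were higher and 1 lower in sgNop16 cells, where 37.0% of all tested genes were called, and 2 higher and 1 lower in sgCtr cells, where 41.4% were. Csrp1, a LIM domain protein, rose by 1.03 ± 0.04 with sgNop16 and 1.04 ± 0.04 with sgCtr, and Ndrg1 rose by 1.07 ± 0.17 and 1.08 ± 0.17. Gclc changed by -1.37 ± 0.04 with sgNop16 and -1.63 ± 0.04 with sgCtr. Gclc had 72.4 ± 0.728 and 187 ± 2.37 CPM with and without CIT in sgNop16 cells, and 69.7 ± 2.37 and 215 ± 12.1 CPM in sgCtr cells (SD, n = 3). The placental growth factor gene Pgf, called higher with sgNop16, had 1.40, 1.69 and 2.74 CPM with CIT, against 0, 0.239 and 0.117 CPM without it. In sgCtr cells Pgf had 1.05, 0.738 and 1.54 CPM with CIT, against 0.205, 0.406 and 0.644 CPM without it. That rise was not called by edgeR (adjusted p = 0.0834), and neither was the difference between the CIT responses (0.181). Like Mt2, Gclc was lower with CIT, whereas Csrp1 and Ndrg1 were higher.

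Copper, which metallothioneins also bind, is handled by a list of 9 genes with 8 tested. CIT went with 3 higher and 1 lower in sgNop16 cells and 3 higher and 3 lower in sgCtr cells, beside 37.0% and 41.4% of all tested genes called. Slc31a2, a copper transporter of endosomes and lysosomes, had 35.7, 37.9 and 34.2 CPM with CIT, against 3.18, 1.84 and 3.22 CPM without CIT in sgNop16 cells. In sgCtr cells it had 31.6, 35.1 and 34.0 CPM with CIT, against 3.71, 1.96 and 3.80 CPM without CIT. That is a rise of 3.71 ± 0.21 and 3.41 ± 0.20 on the log2 scale (adjusted p = 3.97e-10 and 7.85e-10). The plasma membrane copper importer Slc31a1 rose by 0.67 ± 0.04 with sgNop16 and 0.62 ± 0.04 with sgCtr, and the copper exporter Atp7a by 0.58 ± 0.11 and 0.82 ± 0.11. Sod1, the copper and zinc superoxide dismutase, changed by -0.28 ± 0.03 and -0.43 ± 0.03. With the guide, edgeR called 0 of the 8 with CIT and 0 without CIT, beside 6.16% and 3.32% of all tested genes. DESeq2 called 1 and 0, against 1951 and 1198 of all tested genes, and 1 and 0 had an unadjusted p under 0.05.

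Of 10 iron handling genes, 9 were tested. The Nop16 guide went with 2 higher with CIT and 1 higher without CIT, beside 6.16% and 3.32% of all tested genes called. The ferritin heavy chain gene Fth1 had 513, 503 and 503 CPM in sgNop16 with CIT, against 461, 470 and 469 CPM in sgCtr with CIT, and 925, 888 and 900 CPM in sgNop16 without CIT, against 815, 791 and 822 CPM in sgCtr without CIT. It thus rose with the guide by 0.12 ± 0.02 with CIT and 0.16 ± 0.02 without CIT (adjusted p = 0.00509 and 0.000655). Steap3, a metalloreductase, rose with the guide and CIT by 0.36 ± 0.10 (adjusted p = 0.0388). The call was lost without any 1 of the 6 stimulated libraries and without a filter on low counts, with a replicate block (0.0665) and in a fit of the compared groups only. CIT went with 2 higher and 5 lower in sgNop16 cells (37.0% of all tested genes called) and 3 higher and 5 lower in sgCtr cells (41.4%). Fth1 changed by -0.84 ± 0.02 with sgNop16 and -0.79 ± 0.02 with sgCtr, and Hmox1, the heme oxygenase that releases iron, by -1.14 ± 0.08 and -1.03 ± 0.08.

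Metallothionein genes are also known to respond to oxidative stress, heat shock and glucocorticoids. The counts for these 3 lists stand beside 37.0% of all tested genes called for CIT with sgNop16, 41.4% with sgCtr, 6.16% for the guide with CIT and 3.32% without CIT. Of 8 tested targets of the oxidative stress factor NRF2, CIT went with 1 higher and 5 lower in sgNop16 cells and 1 higher and 7 lower in sgCtr cells. The thioredoxin reductase gene Txnrd1 changed by -0.30 ± 0.03 and -0.38 ± 0.03. With CIT, the guide went with 0 of the 8 by edgeR and 0 by DESeq2, with 1 at an unadjusted p under 0.05, and without CIT it went with 1 lower, Gclc. Of 8 tested heat shock genes, CIT went with 5 lower in sgNop16 and 6 lower in sgCtr cells, among them the mitochondrial chaperone Hspd1 at -0.42 ± 0.03 and -0.62 ± 0.03. The guide with CIT went with 2 higher, Hsph1 at 0.19 ± 0.04 (adjusted p = 0.00832) and Hsp90aa1 at 0.08 ± 0.02 (0.0405). The call of Hsp90aa1 ended without any 1 stimulated library (adjusted p up to 0.156), with a replicate block (0.0615) and without a filter on low counts (0.0951). Without CIT, the guide went with 0 of the 8 by edgeR and 0 by DESeq2, with 4 at an unadjusted p under 0.05. The median log2 guide difference of the 8 was 0.09 with CIT and -0.06 without CIT, against 0.01 and 0.0 for all tested genes. Of 6 tested glucocorticoid targets, CIT went with 1 higher and 2 lower in sgNop16 and 2 higher and 2 lower in sgCtr cells. Without sgCtr_no library 1, the sgCtr count was 2, against 4 with all libraries, since the calls of Dusp1 (0.0583) and Tsc22d3 (0.0648) ended. Dusp1 with sgNop16 was not called without sgNop16_CIT library 1 (0.0588). The clock gene Per1 changed by -0.97 ± 0.06 and -0.73 ± 0.05. The guide with CIT went with 1 lower, the immunophilin gene Fkbp5, at -0.18 ± 0.04 (adjusted p = 0.00688).

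The genes whose pattern over the 12 libraries was most like that of each of the 3 were sought among 9523 genes with a mean of at least 5 CPM, by the root mean square difference of mean-centered log2 CPM. For Mt2 these were Ccdc80, an extracellular matrix protein, at 0.30, the heparan sulfate proteoglycan Sdc4 at 0.32, the RNase P subunit Rpp38 at 0.33 and the galectin Lgals1 at 0.34. The spread of Mt2 about its own mean was 0.59 on the same scale. Ccdc80 averaged 103 CPM in sgNop16 with CIT, 75.7 in sgCtr with CIT, 194 in sgNop16 without CIT and 147 in sgCtr without CIT. It had the same order of groups as Mt2, as did Sdc4, Rpp38 and Lgals1. A choice by likeness to Mt2 favors that order. For Mtf1 the nearest were Rrp9, Eif2d, Dcaf15 and Nme6, at 0.07 each, against an own spread of 0.14. For Slc30a1 they included Bicd2 at 0.07 and Togaram1 and Cyfip1 at 0.08, against an own spread of 0.13.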

How the data were processed

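RNA was sequenced from 12 libraries in 4 groups. The authors deposited a table of estimated counts per Ensembl gene, 1 column per library, not scaled to depth. The submitters' processing notes name HISAT2 2.2.1, StringTie 2.2.1 and GRCm39 without roles; annotation release, read length and strand setting are not stated there or in the labels. Per the labels, the kit was directional.

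Of 56941 IDs, 51948 matched a symbol in GENCODE M21. Exon lengths and overlaps come from that annotation of another build (GRCm38), and promoters from RefSeq GRCm38.p6. Differences were fitted with edgeR 4.0.16 (R 4.3.3) by its quasi-likelihood F test, with filterByExpr and TMM factors (0.985 to 1.013), all 12 libraries in 1 model with a mean per group, and Benjamini-Hochberg adjustment over 16794 genes. SE is the absolute log2 difference over the square root of F. The common dispersion was 0.015. The step was tested on simulated data. Calling used an adjusted p under 0.05. CPM uses TMM-scaled library sizes; limits of a count of 0 use raw totals.

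The members and lists were chosen with earlier results of these data known. Genes of each list were named as up to 2 called genes with the largest difference each way per comparison, or else the 2 with the smallest p; the remaining called transporters, Txnrd1 and any call named for its loss were picked once their values had been seen. The settings tried were other scalings (RLE, library totals), filters, counts divided by 4, a fit of the compared groups only, a replicate block, DESeq2 1.42.0 and each library left out. Robust dispersions in the quasi-likelihood fit and the Slc39a7 sum were added after results were seen; the text reports the fit without robust dispersions. Where nothing ties replicates to separate cultures beyond the word biological in the labels, p-values measure the spread between these libraries. One marker list and 1 gene of similar pattern are not reported here.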

Additional observations from a re-analysis of the deposited data

Results flagged for a closer look

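The CIT response of 2 of the 63 tested list genes differed between the guides by the test of that difference. Of all 16794 tested genes, 2.13% were called for it. For Gclc the difference was 0.26 ± 0.06 on the log2 scale (adjusted p = 0.0284 in edgeR's quasi-likelihood test), with responses of -1.37 in sgNop16 and -1.63 in sgCtr cells. The call ended when any 1 of 9 libraries was left out (adjusted p up to 0.0863) and without a filter on low counts (0.0507). For Hsp90aa1 it was 0.13 ± 0.03 (adjusted p = 0.0408), with responses of -0.38 in sgNop16 and -0.51 in sgCtr cells. That call ended without most single libraries (up to 0.168) and under 4 other settings, among them RLE size factors (0.055) and a replicate block (0.065).

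In 2 other list genes, the libraries of the 2 guides separated one way with CIT and the opposite way without CIT. For Sod1, all 3 sgNop16 libraries lay above all 3 sgCtr libraries with CIT and below them without CIT. For Per1 it was the reverse. The share of all tested genes with such a pattern was not counted. Separation with sgNop16 above was found in 13.2% of tested genes with CIT and 9.44% without CIT. Sod1 had guide differences of 0.11 with CIT and -0.05 without CIT, which differ by 0.16 (adjusted p of that difference = 0.095 in edgeR, not called, and 0.00996 in DESeq2, which called it). Per1 had guide differences of -0.19 with CIT and 0.06 without CIT, which differ by -0.24 (adjusted p = 0.132 in edgeR, not called, and 0.0296 in DESeq2, which called it).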

How the results depend on the processing

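The log2 differences of Mt2, Mtf1 and Slc30a1 moved by less than 1 SD between replicates under all settings run. With 3 libraries per group, leaving out 1 can hardly move a difference further, so this bound is no test. With 1 library left out, those of Mt2 were 0.85 to 1.15 for the guide with CIT and 0.43 to 0.72 for the guide without CIT. For CIT they were -0.69 to -0.45 with sgNop16 and -1.18 to -0.82 with sgCtr. Robust dispersions, added after results were seen, left these values as they were and gave 1195, 682, 6343 and 7007 called genes for the same 4 comparisons, against 1034, 558, 6218 and 6945, and 475 against 358 for the difference between the CIT responses. Sod1 for the guide with CIT (adjusted p = 0.0548) passed the threshold with robust dispersions (0.0386), a minimum of 5 CPM (0.0459), counts divided by 4 (0.0469) and DESeq2 (0.00458).

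Counts of called genes moved more. DESeq2 called 1951 and 1198 genes for the guide with and without CIT and 1046 for the difference between responses, and 12, 5 and 8 of the list genes, against 7, 2 and 2 by edgeR. Without a filter on low counts, 1 zinc transporter and 4 list genes were called for the guide with CIT, and 0 list genes and 207 genes in all for the difference between responses. For that difference the list count was 1 with RLE factors, library totals or the replicate block, and 4 with a minimum of 5 CPM, robust dispersions or counts divided by 4. With 1 library left out, calls for the guide with CIT were 617 to 723 in all, 3 to 5 in the lists and 0 to 1 among zinc transporters. For the guide without CIT they were 352 to 389, 1 to 4 and 0 to 1. For CIT with sgNop16, 2 to 5 zinc transporters were called, and for the difference between responses 215 to 277 genes in all and 0 to 2 in the lists. The cause of these changes was not tested. Where 1 library was left out, having fewer libraries and losing that particular library were not separated.

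Mt3, near the limit of counting, changed sign for the guide with CIT when counts were divided by 4 (-0.02) and between -0.21 and 0.36 with 1 library left out, and for CIT with sgCtr between -0.46 and 0.01. Same-numbered libraries did not deviate together (correlations -0.045 to 0.023, none of 12 over 0.1; 2 of 12 libraries correlated best with their own number), so the numbers were not taken as pairs. With the replicate block Mt2 differed by 0.98 for the guide with CIT and 0.56 without CIT, and 920 and 477 genes were called in all. The low count of Mt2 and the 0 of Mt1 limit what depth can show.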
